A study of Mus musculus with 24 samples.

Results

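The genes described here were those whose symbols begin with Dnah, Dnaic, Tekt, Rsph, Cfap or Spag and a digit, families named after the motile axoneme of cilia and sperm tails. A letter after the digits was allowed for Dnah and Rsph only. The 7 symbols with another ending (Cfap97d1, Cfap97d2, Dnah2os, Spag11a, Spag11b, Spag17os and Spag6l) were left out. Of the 54232 genes in the count table, 68 met the rule read in this way. The filter of more than 10 counts over all 24 libraries was passed by 67 of them, and by 26116 genes in total. The remaining one, the radial spoke gene Rsph4a, had 5 counts.

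The libraries came from visceral adipose tissue of male C57BL6 mice, 10 weeks old by the description of the series, with 6 mice in each of 4 groups and 1 library per mouse. The study asked how experimental renal failure and the peptide NaKtide, made in adipocytes, alter adipose gene expression. Control mice had a sham operation and a lentivirus carrying GFP. NaKtide mice had the sham operation and the NaKtide virus. PNx mice had partial nephrectomy, in which part of the left kidney was tied off and the right kidney removed, and the GFP virus. PNx+NaKtide mice had the nephrectomy and the NaKtide virus, in which NaKtide is joined to GFP by a 2A peptide. All 4 groups therefore carried an intraperitoneal lentivirus with an adiponectin promoter, and no group was free of virus. No batch was given in the labels, and the p-values below measure the spread between these mice.

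The axoneme is the microtubule core of a motile cilium or sperm tail, a ring of doublets around a central pair. Outer and inner dynein arms on each doublet are the motors that slide neighbouring doublets, radial spokes and the central pair set the pattern of the beat, and tektins and other inner proteins line the doublet wall. In mammals such axonemes are made by developing sperm and by multiciliated epithelia such as those of the airway and the efferent ducts. Mature adipocytes are not known to build them. RFX factors, which bind the X-box motif, and FOXJ1 drive many of these genes in ciliated cells, and CREM acts at cAMP response elements in male germ cells.

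The name of the gene set did not hold for every member. Spag4 encodes a nuclear envelope protein, Spag5 a mitotic spindle protein, Spag7 a nucleic-acid-binding protein and Spag9 a scaffold of JNK signalling. These 4 sperm-associated antigen genes were kept, as the rule includes them, and are described apart. The other 64 comprised 7 outer arm chains, 10 inner arm heavy chains, 9 genes of arm assembly and tethering, 10 radial spoke genes, 8 central pair genes, 5 tektins, 8 microtubule inner proteins and 7 other cilia and flagella associated genes. Dnah7a, Dnah7b and Dnah7c are close copies of each other, as are Rsph3a and Rsph3b, so the split of counts within these groups is uncertain.

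Promoter windows from RefSeq (GRCm38.p6) were found for 56 of the 68 genes and searched on both strands over the 250 bases before the transcription start. The palindromic X-box, searched as GTTNCC followed after 2 free bases by GGNAAC, was found in 1 member (1.79%) and in 0.444% of all genes with a window. Its short core GTTGCC, which can be part of the X-box, occurred in 17 members (30.4%) and in 11.8% of all genes. The cAMP response element TGACGTCA occurred in 2 members (3.57%) and in 1.77% of all genes. These are matches of letters and show no binding. The X-box match lay in the promoter of Cfap298, an arm assembly gene, at chr16:90935016-90935045 on the minus strand, 188 bases before the RefSeq start and inside the first exon that GENCODE annotates for the gene. It is shown because it was the only full X-box found, with the motif in capitals.
Cfap298: gggttttgGTTGCCCGGGCAACagctactt

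The core motif was found in all 3 copies of the inner arm gene Dnah7, which are shown to compare the copies. They lay at chr1:53706959-53707004 (minus strand), chr1:46066670-46066715 (plus strand) and chr1:46425279-46425324 (plus strand), at 200, 163 and 219 bases before the start. The capitals mark the core.
Dnah7a: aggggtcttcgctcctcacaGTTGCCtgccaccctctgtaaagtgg
Dnah7b: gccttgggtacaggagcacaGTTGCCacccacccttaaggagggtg
Dnah7c: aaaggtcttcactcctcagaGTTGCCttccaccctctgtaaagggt

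In Spag16 (central pair) and Cfap44 (arm tethering) the core was found in reverse complement, at chr1:69826839-69826884 and chr16:44394650-44394695, both on the plus strand. These genes are shown because both were among the 7 of lowest p-value in the comparison of NaKtide after nephrectomy given further on. Each window held 2 matches, and the capitals mark 1 of them. In Spag16 the other is the forward core, in lower case in the same stretch. The response element in Dnah6, the member with the lowest p-value after nephrectomy, lay at chr6:73221779-73221826 on the minus strand, 175 bases before the start.
Spag16: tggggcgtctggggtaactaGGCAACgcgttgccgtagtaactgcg
Cfap44: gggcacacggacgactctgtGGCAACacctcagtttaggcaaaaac
Dnah6: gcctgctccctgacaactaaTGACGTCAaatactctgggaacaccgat

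Several features of the libraries touch every value that follows. Library totals ran from 679250 to 2979505 counts, so that 3 counts, the limit a count of 0 allows, equalled 0.739 to 5.91 CPM (the count relative to the library total, after TMM scaling). PNx replicates 1, 2 and 3 stood apart from the other PNx libraries, and PNx replicate 6 and NaKtide replicate 6 had far more adipocyte marker counts than the rest. The summed CPM of 20 adipocyte markers was 8463 and 6114 in these last libraries and from 156 to 1391 in the PNx+NaKtide group. In PNx against Control, the counts and medians of the members and marker lists are also given without PNx replicates 1, 2 and 3, and the medians of members and adipocyte markers without replicate 6 of PNx and NaKtide, as alternatives added after seeing the data. In a bulk tissue, fewer cells of a type and less RNA per cell cannot be told apart.

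The strand of the counts bears on these genes. The library kit marks strand, but the strand setting of the counting is not given in the sources used here. Of the 68 members, 28 (41.2%) have exons that overlap those of an opposite-strand gene, against 16.6% of all genes. These 28 held 72.9% of the 62178 member counts, while overlapping genes as a whole held 79.7% of all counts. Only 2.23% of member exon bases lie in such an overlap. The median total of the 28 was 1249 counts, against 278 for the other 40. On the mitochondrial genome, mt-Nd6, the single mRNA gene of the minus strand, had 403137 counts per kb, and the 12 plus-strand mRNA genes had 5968. The ratio of the minus to the plus strand was 21 in the lowest library and 194 in the highest. A count printed for any gene may thus contain reads from its opposite strand, or consist of them. The sense and antisense parts cannot be told apart. Each overlapping gene named below is uncertain for this reason. Members without an annotated overlap and the marker lists are not exempt, and the strand of their reads was not tested.

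The axoneme genes were a small share of the libraries, 0.149% of all counts, and were highest in 3 PNx mice. Members held 0.32%, 0.211% and 0.365% of the counts in PNx replicates 1, 2 and 3 and from 0.0688% to 0.153% in the other 21 libraries. More than 3 counts were found for 67, 64 and 66 of the 68 genes in PNx replicates 1, 2 and 3 and for 23 in NaKtide replicate 5, the shallowest library. The 40 members without an opposite-strand overlap summed to 875, 589 and 985 CPM in these PNx libraries and to 167, 165 and 219 CPM in PNx replicates 4, 5 and 6. The same sum ran from 138 to 320 CPM in Control, from 109 to 358 CPM in NaKtide and from 130 to 442 CPM in PNx+NaKtide. The PNx group therefore held both the highest values and values inside the Control range.

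**Figure D1:**
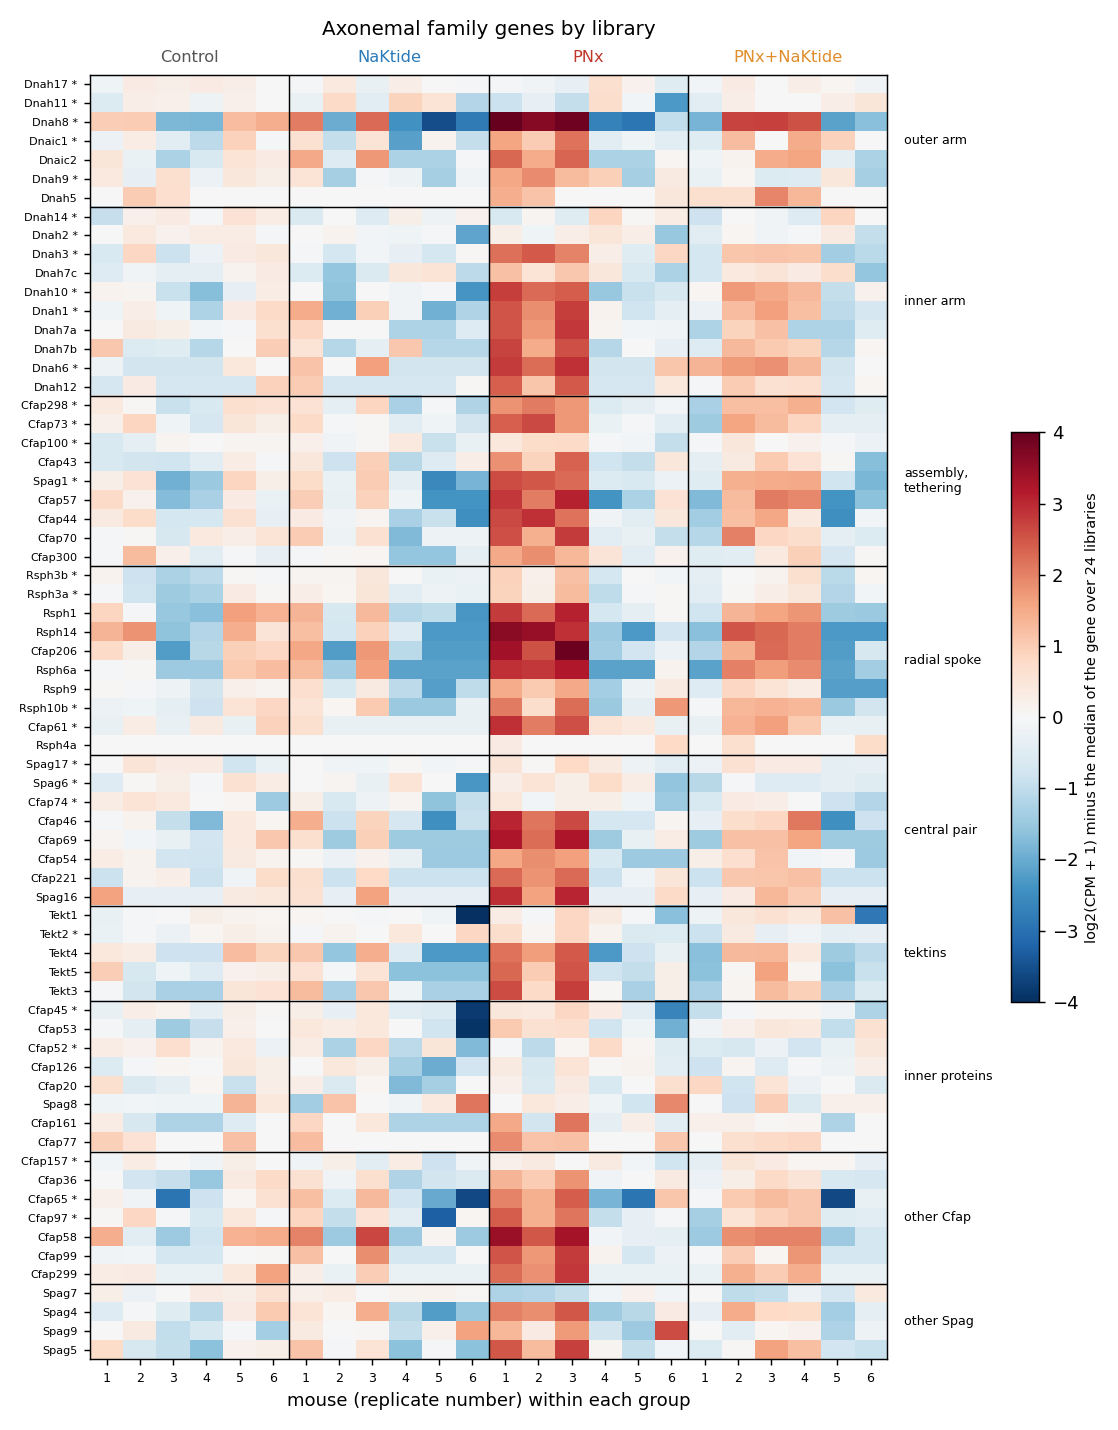
Each row is 1 of the 68 genes, grouped by role, and each column is 1 of the 24 libraries, ordered by group and replicate; colour is log2(CPM + 1) minus the gene's median over libraries, and an asterisk marks an opposite-strand exon overlap. PNx replicates 1, 2 and 3 are high for most rows of the inner arm, spoke and central pair genes, while the inner proteins show no such block.

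For 31 of the 68 members (45.6%) the 3 highest of all 24 libraries were PNx replicates 1, 2 and 3, compared with 16.4% of all genes tested. The share was 19 of 40 without an overlap and 12 of 28 with one. It differed by role. The inner arm heavy chains had 7 of 10, the spoke genes 6 of 10, the central pair genes 5 of 8, the assembly and tethering genes 5 of 9 and the other Cfap genes 4 of 7. The outer arm chains had 2 of 7, the tektins 1 of 5, the Spag genes of other function 1 of 4 and the microtubule inner proteins 0 of 8. These counts describe the libraries and were not tested, since the 3 libraries were known to stand apart.

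In PNx against Control, no member passed a BH-adjusted p-value of 0.1 in edgeR's quasi-likelihood test. Over all genes, 20 of 26116 passed (0.0766%), all lower in PNx. At an unadjusted p-value under 0.05, 27 members were higher and 1 was lower, which is 41.8% of the 67 tested, against 25.4% of all genes (18.5% higher and 6.88% lower). The fold change was positive for 59 of 67 members, against 60.7% of all genes, and the log2 fold change was above 1 for 45 members (67.2%) and for 33.8% of all genes. The median log2 fold change was 1.35 for members and 0.36 for all genes.

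Some other settings made many calls and some made none. DESeq2 called 47 members higher, edgeR with DESeq2's size factors 46 higher, and limma voom with sample weights 51 higher and 2 lower. These settings also called 34.9%, 33.3% and 63.5% of all genes. No member was called without the count filter, on log2(FPKM + 1) or log2(FPKM + 0.1), with the compared groups alone or with a replicate block. At most 0.0268% of all genes were called in those fits. With the block in edgeR, 13.4% of members had an unadjusted p-value under 0.05, against 20.3% of all genes. When PNx replicates 1, 2 and 3 were left out, no member was called and 3 members had an unadjusted p-value under 0.05 (1 higher and 2 lower), which is 4.48% of members and compares with 11.1% of all genes. The members' median was then -0.28, against -0.05 for all genes, and role medians ran from -0.54 for the outer arm chains to -0.09 for the microtubule inner proteins. Without PNx replicate 4, 5 or 6 in turn, 52.2%, 37.3% and 25.4% of members were called (35, 25 and 17), against 33.2%, 23.2% and 14.8% of all genes. Without replicate 6 of PNx and NaKtide, the members' median was 1.55 and that of all genes 0.02.

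**Figure D2:**
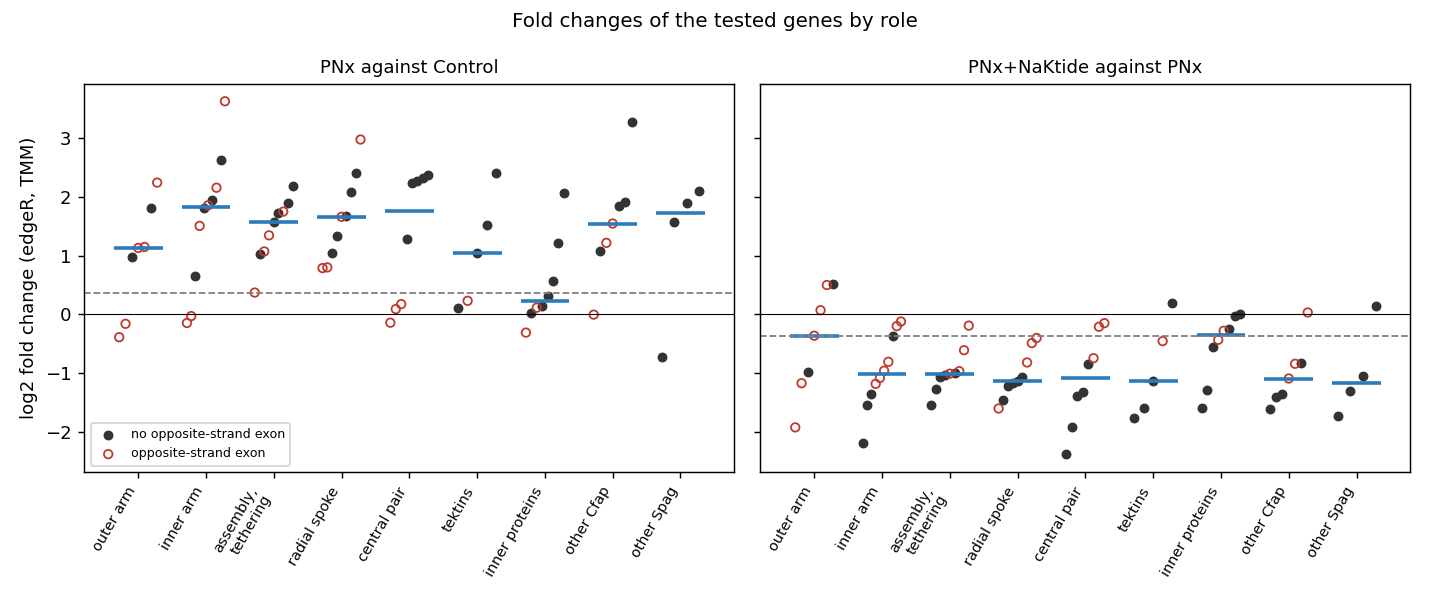
Each point is 1 gene's log2 fold change from the edgeR fit of 4 group means, by role, for PNx against Control and for PNx+NaKtide against PNx; filled points have no opposite-strand exon, open points have one, short bars are role medians and dashed lines the medians of all genes (0.36 and -0.37). Most role medians lie above 1 in the first comparison and near -1 in the second, with the inner proteins closer to 0 in both and the outer arms in the second.

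Among the outer arm chains, the motors that supply most of the power of the beat, Dnah8 and Dnah17 behaved differently. Dnah8 (chr17:30624354-30877365, plus strand, overlap of 207 bases with 1700097N02Rik) encodes the heavy chain used in sperm. Its CPM was 184, 145 and 173 in PNx replicates 1, 2 and 3 and 0.785, 0.594 and 4.91 in PNx replicates 4, 5 and 6. In Control it ran from 2.33 to 31.5 (median 22.4), in NaKtide from 0 to 55.9 (median 1.60) and in PNx+NaKtide from 1.66 to 77.9 (median 35.1). The 3 highest PNx values lay above all other libraries and PNx replicates 4 and 5 among the lowest, so the groups overlapped. The log2 fold change for PNx against Control was 2.25 ± 1.27 (SE, edgeR adjusted p = 0.249), and -2.97 ± 1.61 (SE) without PNx replicates 1, 2 and 3.

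Dnah17 (chr11:118021723-118130634, minus strand), another sperm outer arm heavy chain, had 6721 counts, the most of any member. Its CPM ran from 134 to 187 in Control, 106 to 232 in PNx, 121 to 196 in NaKtide and 136 to 189 in PNx+NaKtide, which overlap fully. Its log2 fold change in PNx against Control was -0.16 ± 0.25 (SE). Dnah11, the second heavy chain by FPKM, had 25.3 to 213 CPM in PNx and 87.7 to 154 CPM in Control. Both overlap genes of the opposite strand. The median over the 7 outer arm chains was 1.13, 5 were positive, and none had an unadjusted p-value under 0.05.

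The inner arm heavy chains, which shape the bend, had the highest role median, 1.84, with 8 of 10 positive and 6 at an unadjusted p-value under 0.05. Dnah6 (chr6:73017606-73221651, minus strand) had the lowest p-value of all members. In Control it had 0 to 1.23 CPM (median 0.232), and 3 libraries were at 0. In PNx it had 10.6, 6.86, 11.6, 0, 0 and 2.64 CPM in replicates 1 to 6, so the groups overlapped at the lower end. The log2 fold change was 3.63 ± 1.04 (SE, edgeR adjusted p = 0.128) on 156 counts in all.

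Dnah3 (chr7:119922671-120095280, minus strand) was the better-counted case, with 1485 counts. It had 80.6, 96.5, 69.9, 20.4, 11.9 and 30.6 CPM in PNx replicates 1 to 6, against 8.88 to 30.5 CPM in Control (median 17.8). PNx replicates 1, 2 and 3 lay above every Control library and the others inside the Control range or just above its highest value. The log2 fold change was 1.51 ± 0.52 (SE, edgeR adjusted p = 0.136). Dnah3 shares 1506 exon bases with Lyrm1 on the opposite strand, which had 5897 counts.

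Of the further inner arm genes, Dnah10 and Dnah12 had log2 fold changes of 2.16 ± 0.76 and 2.62 ± 1.01 (SE, edgeR adjusted p = 0.136 and 0.145). Dnah7a had 1.94 ± 0.79, while its copies Dnah7b and Dnah7c had 1.81 ± 0.89 and 0.65 ± 0.49 (SE). Dnah14 was the highest by FPKM of this role (8.68) and differed from these, with 73.8 to 210 CPM in Control and 91.7 to 253 CPM in PNx and a log2 fold change of -0.03 ± 0.32 (SE). Dnah2 likewise had -0.14 ± 0.37 (SE). Both overlap opposite-strand genes.

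Arm assembly and tethering proteins load the dyneins or hold them on the doublet, and all 9 had positive fold changes, with a median of 1.58 and 6 at an unadjusted p-value under 0.05. Cfap43 and Cfap44, a pair that tethers an inner arm and is needed for the sperm tail, had log2 fold changes of 1.58 ± 0.56 and 1.90 ± 0.73 (SE, edgeR adjusted p = 0.136 and 0.146). Cfap43 (chr19:47736857-47919287, minus strand) had 34, 17.4, 50.5, 4.71, 4.16 and 12.5 CPM in PNx replicates 1 to 6 and 4.73 to 11.1 CPM in Control. Cfap44 (chr16:44394796-44482428, plus strand) had 32.8, 40.4, 23.7, 3.93, 2.97 and 6.42 CPM in PNx and 2.33 to 8.01 CPM in Control. In each gene PNx replicates 1, 2 and 3 were the highest of the PNx and Control libraries. They were the 3 highest of all 24 libraries for Cfap44 but not for Cfap43, in which PNx replicate 6 also lay above the Control range. Cfap73, the highest of this role by FPKM (28.3), had 1.35 ± 0.55 (SE), and Cfap298, the gene with the X-box match, 1.07 ± 0.56 (SE). Cfap298 shares 53.6% of its exon bases with opposite-strand genes, 1 of which, Gm49727, held 31374 counts against its 1276.

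The radial spokes connect the doublets with the central pair. Of the 9 spoke genes tested, all were positive, with a median of 1.66 and 4 at an unadjusted p-value under 0.05. Rsph1 (chr17:31255019-31277383, minus strand), a head protein, had the highest mean FPKM of all members (35.4) and no opposite-strand overlap. It had 125, 85.2, 151, 10.2, 13.1 and 17.7 CPM in PNx replicates 1 to 6, and 4.67 to 55.5 CPM in Control (median 24). The highest 3 PNx libraries lay above all Control libraries and the lowest 3 below the Control median. The log2 fold change was 1.34 ± 0.80 (SE, edgeR adjusted p = 0.272), and -0.97 ± 0.89 (SE) without PNx replicates 1, 2 and 3.

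Rsph6a (chr7:19054690-19074447, plus strand), a spoke head gene of sperm, had 32, 30.3, 39.6, 0, 0 and 3.77 CPM in PNx, against 0.583 to 9.37 CPM in Control, and a log2 fold change of 2.08 ± 1.17 (SE), or -1.51 ± 1.43 (SE) without PNx replicates 1, 2 and 3. Its paralog of ciliated epithelia, Rsph4a, had 5 counts over 4 libraries and was not tested. Cfap206 and Cfap61, which belong to the base of a spoke, had 2.41 ± 1.12 and 2.98 ± 1.01 (SE, edgeR adjusted p = 0.183 and 0.136). Rsph3b, the second of this role by FPKM, had 0.79 ± 0.37, and its copy Rsph3a 0.80 ± 0.39 (SE).

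**Figure D3:**
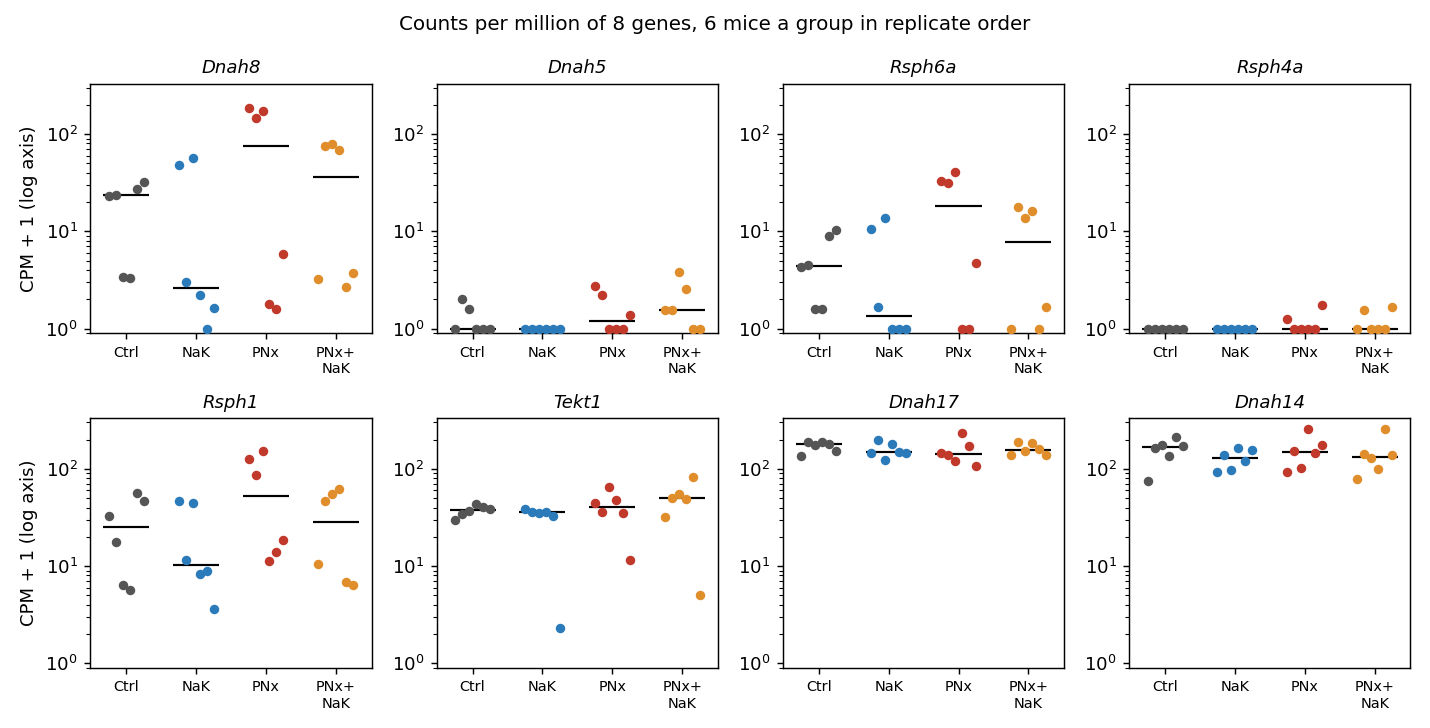
Each panel is 1 gene (Dnah8, Dnah5, Rsph6a, Rsph4a, Rsph1, Tekt1, Dnah17 and Dnah14), with CPM + 1 on a log axis by group; points are the 6 libraries of a group in replicate order and bars are medians. PNx splits into 3 high and 3 low libraries for Dnah8, Rsph6a and Rsph1, while Dnah17 and Dnah14 show no such split.

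The central pair organises the spokes, and its 8 genes had a median of 1.77, with 7 positive and 4 at an unadjusted p-value under 0.05. Cfap46 (chr7:139600951-139683817, minus strand) had 43.4, 23, 32.8, 2.36, 2.38 and 4.91 CPM in PNx replicates 1 to 6, against 0.583 to 6.17 CPM in Control. PNx replicates 1, 2 and 3 were above every Control library. The log2 fold change was 2.28 ± 0.82 (SE, edgeR adjusted p = 0.139). Cfap69 had 2.38 ± 0.99 and Spag16 had 2.33 ± 1.02 (SE), on 289 and 102 counts. The 2 highest by FPKM did not follow them. Spag6 had 20.9 to 46.3 CPM in Control and 9.43 to 50.3 CPM in PNx (0.09 ± 0.40, SE), and Spag17 had 0.18 ± 0.30 (SE). Both overlap opposite-strand genes. Spag6l, left out of the members for its ending, had 64, 15 and 59 counts in PNx replicates 1, 2 and 3 and 1, 1 and 2 counts in replicates 4, 5 and 6.

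Tektins are filaments of the doublet wall, and all 5 had positive fold changes, with a median of 1.05 and 1 at an unadjusted p-value under 0.05, Tekt3 (2.40 ± 1.00, SE). Tekt1 (chr11:72344722-72362442, minus strand), had no overlap. It had 28.8 to 42 CPM in Control, 10.6 to 64.1 in PNx, 1.29 to 37.4 in NaKtide and 4.07 to 81.5 in PNx+NaKtide. Replicate 6 was the lowest library of each group but Control, and the log2 fold change in PNx against Control was 0.10 ± 0.53 (SE). Tekt2, which overlaps Gm12945, had 0.23 ± 0.32 (SE).

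The other microtubule inner proteins had a median of 0.23, with 7 of 8 positive and 1 at an unadjusted p-value under 0.05, Cfap161 (2.06 ± 0.85, SE). Relative to all genes their median was -0.13 with TMM, -0.05 with DESeq2's size factors and -0.09 with library size scaling, but 0.37 with voom and 0.16 with the filterByExpr filter. DESeq2's size factors moved the median of all genes from 0.36 to 0.76. Cfap45, the most counted, had 37.9 to 59.5 CPM in Control and 7.17 to 88.3 CPM in PNx (0.12 ± 0.49, SE). The other Cfap genes had a median of 1.55, with 6 of 7 positive. Cfap99 had 8.38, 4.44, 10.3, 0.785, 0 and 0.377 CPM in PNx and 0 to 0.669 CPM in Control (3.28 ± 1.02, SE, edgeR adjusted p = 0.132). Cfap157, needed for the sperm tail and second among members by FPKM (32.0), had 50.8 to 69.5 CPM in Control and 31.7 to 72.2 CPM in PNx, with a log2 fold change near 0 and an SE of 0.29. Cfap36, the second of this role, had 1.08 ± 0.45 (SE).

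The 4 Spag genes of other function did not move as 1 group. Spag9, the JNK scaffold, had 9.86, 4.44, 13.1, 1.57, 0.594 and 25.3 CPM in PNx, so its highest library was PNx replicate 6 and not 1 of the first 3 (1.90 ± 0.65, SE, edgeR adjusted p = 0.135). Spag7 had the reverse order, with 9.86, 10.5 and 12.1 CPM in PNx replicates 1, 2 and 3 and 21 to 38.1 CPM in Control (-0.72 ± 0.34, SE, edgeR adjusted p = 0.186). Spag5 had 2.1 ± 0.84 (SE, with an adjusted p-value of 0.15 in edgeR).

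The question of what NaKtide does after nephrectomy was addressed by PNx+NaKtide against PNx. Here no member passed a BH-adjusted p-value of 0.1 in edgeR, and no gene did (0%). At an unadjusted p-value under 0.05, 0 members were higher and 7 were lower, against 12.7% of all genes (4.07% higher and 8.6% lower). The median log2 fold change was -1.01 for members and -0.37 for all genes, and 7 of 67 members were positive, against 36.2% of all genes. DESeq2 called 10 members lower (14.9%), and voom called 31 lower and 1 higher (47.8%), while they called 9.63% and 42.4% of all genes. With PNx replicates 1, 2 and 3 left out, the members' median was 0.62. This comparison shares the PNx libraries with the one above, so an opposite sign in the second is not independent of the first.

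The lowest p-values belonged to the inner arm gene Dnah7a, the outer arm heavy chain Dnah9 and Spag9, with log2 fold changes of -2.20 ± 0.81, -1.92 ± 0.72 and -1.73 ± 0.65 (SE, edgeR adjusted p = 0.357 for each). Dnah7a had 12.6, 6.86, 15.9, 1.57, 1.19 and 1.13 CPM in PNx replicates 1 to 6 and 0, 3.34, 4.29, 0, 0 and 0.679 CPM in PNx+NaKtide. The groups overlapped through the lower PNx libraries. Dnah3 had -1.18 ± 0.51, Spag16 -2.38 ± 1.06, Cfap300 -1.27 ± 0.60 and Cfap44 -1.53 ± 0.73 (SE). By role, the median was -1.08 for the central pair, -1.13 for the spokes, -1.02 for the inner arms, -1.01 for assembly and tethering and -1.09 for the other Cfap genes. It was -0.36 for the outer arms and -0.35 for the inner proteins.

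Within PNx+NaKtide, replicates 2, 3 and 4 had more than the others. The 40 members without an overlap summed to 370, 442 and 411 CPM there and to 154, 174 and 130 CPM in replicates 1, 5 and 6. Control replicates 1, 2, 5 and 6 and NaKtide replicates 1 and 3 were the higher libraries of the sham groups. NaKtide replicates 1 and 3 had 354 and 358 CPM, against 109 to 183 CPM in the other 4. Each group was thus spread, and the spread was widest in PNx.

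In NaKtide against Control, 0 members were called in edgeR and 0 had an unadjusted p-value under 0.05, against 3.95% of all genes (2.04% higher and 1.91% lower). DESeq2 and voom called none, and voom gave 4 at an unadjusted p-value under 0.05 (5.97%, against 8.39% of all genes). The members' median was -0.15, and 28 of 67 were positive, against 49.4% of all genes. In PNx+NaKtide against NaKtide, 0 members were called by edgeR, DESeq2 or voom, and 2 had an unadjusted p-value under 0.05 in edgeR, both higher, against 4.09% of all genes (1.5% higher and 2.58% lower). Of 67 members, 52 were positive, against 52.7% of all genes, and the median was 0.37. The 2 genes were Dnah10 (1.68 ± 0.81, SE, edgeR adjusted p = 1) and Dnah5, an outer arm heavy chain of epithelial cilia. Dnah5 was at 0 counts in all 6 NaKtide libraries and had 0.554, 0.557, 2.86, 1.54, 0 and 0 CPM in PNx+NaKtide, where only replicate 3, with 4 counts, exceeded 3 counts. The interaction of nephrectomy and NaKtide gave no call in edgeR or DESeq2 (11 lower in voom, 16.4% of members against 25.2% of all genes) and 2 members at an unadjusted p-value under 0.05, against 9.27% of all genes (3.48% higher and 5.79% lower). In all, 13 of 67 were positive, against 38.9% of all genes, with a median of -0.90. The lower ones were Spag9 (-2.72 ± 0.93) and Cfap99 (-3.59 ± 1.41, SE, edgeR adjusted p = 0.488 and 0.492).

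Some paralogs divide work between sperm and ciliated epithelia, and the levels per length of 7 such genes, chosen after their values were seen, are given without a test. Mean FPKM over all libraries was 3.31 for the sperm gene Dnah8 and 0.0303 for its epithelial counterpart Dnah5, which had 22 counts in all. It was 9.66 for the sperm gene Dnah17, and 0.154 and 8.75 for the epithelial outer arm chains Dnah9 and Dnah11. It was 4.01 for Rsph6a and 0.0253 for Rsph4a. Dnah8, Dnah17, Dnah9 and Dnah11 overlap opposite-strand genes, whereas Dnah5 and both spoke genes do not.

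The opposite-strand partners of the 28 overlapping members followed the split of the PNx libraries more often than the members did. For 21 of 28 first partners (75%) the 3 highest libraries were PNx replicates 1, 2 and 3, against 12 of 28 members. In 12 pairs only the partner did so, in 9 both, in 3 only the member and in 4 neither. The partner had more counts in 19 pairs and the larger SD of log2 CPM over libraries in 21. The shared exon stretch was 3 to 1506 bases long, with a median of 263.5.

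The plainest pair was Tekt2 (chr4:126322121-126325688, minus strand) and Gm12945, which share 396 exon bases. Tekt2 had 1264 counts and 13.8 to 47.4 CPM, whereas Gm12945 had 22339 counts, with 1562, 1841 and 1163 CPM in PNx replicates 1, 2 and 3 and 31.4, 21.4 and 35.5 CPM in replicates 4, 5 and 6. The SD of log2 CPM over the 24 libraries was 0.427 for Tekt2 and 2.47 for Gm12945. Dnah2 and Dnah2os were alike in this, with SDs of 0.608 and 2.46 and 0 to 172 CPM for Dnah2os. So were Dnah17 (0.263) and Gm11738 (2.43), and Spag6 (0.714) and Gm20539 (2.54). In these 4 pairs the member varied less over the libraries than the gene opposite to it. Whether their counts are sense or antisense to the axoneme transcript was not tested.

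**Figure D4:**
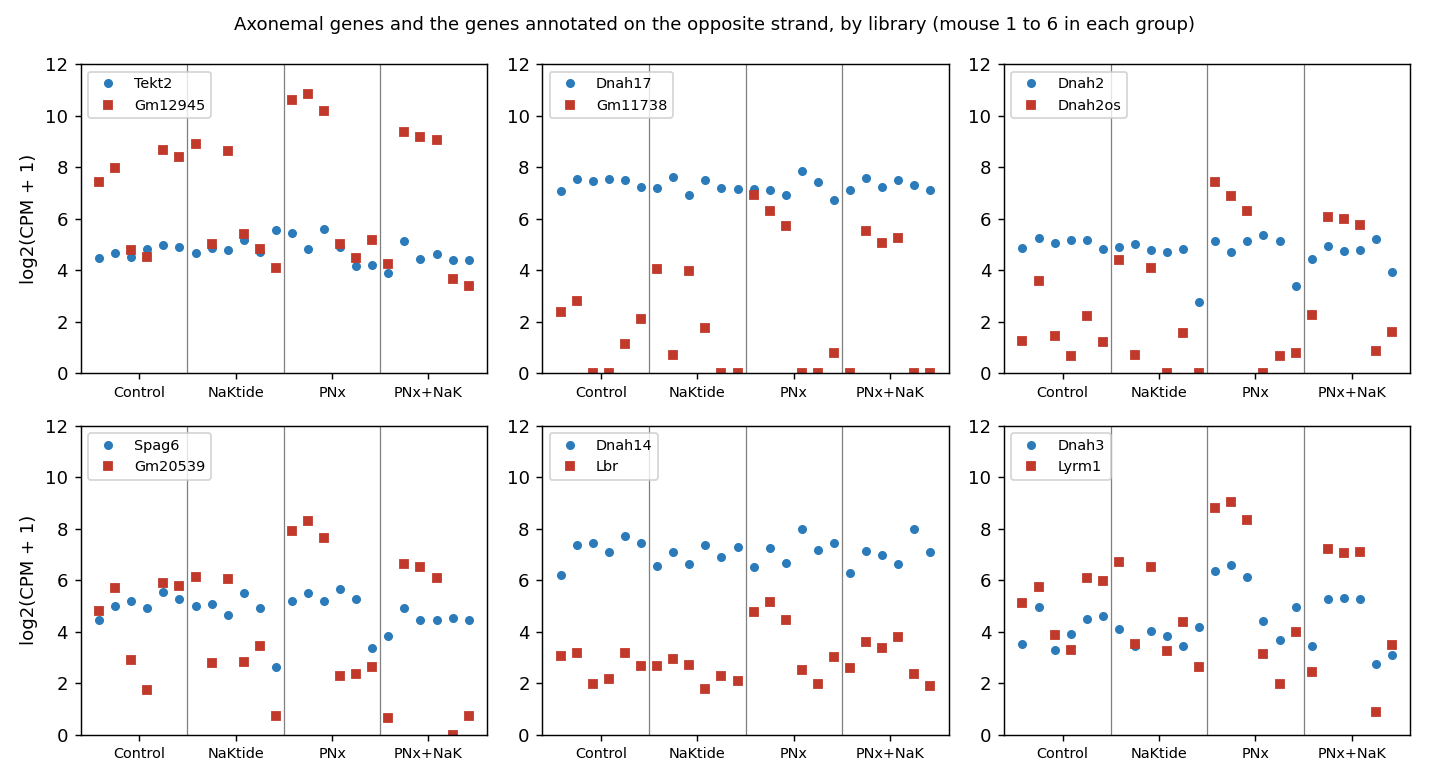
Each panel shows 1 member and its opposite-strand partner (Tekt2 and Gm12945, Dnah17 and Gm11738, Dnah2 and Dnah2os, Spag6 and Gm20539, Dnah14 and Lbr, Dnah3 and Lyrm1) as log2(CPM + 1) in each of the 24 libraries, ordered by group and replicate. The partner is highest in PNx replicates 1, 2 and 3 in all 6 panels, while of the members only Dnah3 is.

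Other genes of the axoneme programme, from lists made for these families, gave no call in PNx against Control either. Their counts at an unadjusted p-value under 0.05 stand against 25.4% of all genes (18.5% higher and 6.88% lower), also for the markers that follow. Of 18 further central pair, spoke and inner proteins, 17 were positive and 8 were higher at an unadjusted p-value under 0.05, with a median of 1.90. Among them were Hydin (2.75 ± 1.10), Stk36 (2.67 ± 0.96) and Spef1 (1.96 ± 0.82, SE), which are central pair genes or needed for it. Without PNx replicates 1, 2 and 3, their median was -0.91 and 1 of 17 was positive. Of 10 other arm chains, 4 were higher (median 1.23), Nme8 among them (2.53 ± 1.06, SE). Of 16 docking, ruler and nexin link genes, 3 (18.8%) were higher and 10 (62.5%) were positive, against 18.5% and 60.7% of all genes. Their median was 0.84, and they ran from -0.91 to 3.10 ± 1.07 (SE) for Armc4, an arm docking gene. Of 10 genes in a list made for dynein arm assembly, which also took in the spoke gene Dnajb13, 2 were higher and 2 lower (median 0.93). Lrrc6 and Ccdc103 were at 2.36 ± 0.94 and 2.38 ± 1.09, and Dnaaf2 and Dnajb13 at -0.93 ± 0.34 and -0.79 ± 0.36 (SE). The medians of these 3 lists were -0.45, -0.61 and -0.73 without PNx replicates 1, 2 and 3.

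Of 12 regulators of multiciliated cells, 4 were higher at an unadjusted p-value under 0.05 (33.3%, median 0.63, or -0.25 without PNx replicates 1, 2 and 3). They were Rfx2 (2.35 ± 0.83), Rfx3 (2.55 ± 0.90), Foxj1 (1.77 ± 0.77) and Deup1 (2.49 ± 1.15, SE). Rfx2, which also acts in spermatids, had 56.9, 38 and 56.8 CPM in PNx replicates 1, 2 and 3 and 1.57 to 9.06 CPM in replicates 4, 5 and 6. Foxj1 had 13.3, 5.65 and 11.6 CPM against 0.594 to 8.30 CPM. Mcidas, which starts the multiciliated programme, had the reverse order, with 0.246, 3.23 and 2.02 CPM in PNx replicates 1, 2 and 3 and 10 to 15.3 CPM in Control.

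Marker sums of some other cell types were also high in PNx replicates 1, 2 and 3. The 20 haploid sperm markers summed to 1667, 1557 and 1961 CPM in PNx replicates 1, 2 and 3 and to 442, 410 and 618 CPM in replicates 4, 5 and 6. Their range was 541 to 978 CPM in Control, 439 to 1148 CPM in NaKtide and 377 to 1432 CPM in PNx+NaKtide. In PNx against Control, 5 of 20 (25%) had an unadjusted p-value under 0.05, against 25.4% of all genes (median 0.92, or -0.93 without PNx replicates 1, 2 and 3). The testis germ cell markers summed to 727, 502 and 848 CPM in PNx replicates 1, 2 and 3 and to 156, 105 and 476 CPM in the other 3, of which Sycp3 alone gave 412 CPM in replicate 6. Their range was 98.2 to 277 CPM in Control, 135 to 667 CPM in NaKtide and 84.0 to 378 CPM in PNx+NaKtide, and 8 of 19 tested (42.1%) had an unadjusted p-value under 0.05 (median 1.98, or -0.85 without PNx replicates 1, 2 and 3). Spata22 of this list was at 0 in every library. In NaKtide the germ cell sum was highest in replicate 6, at 667 CPM, where the members without an overlap had their lowest sum of that group, 109 CPM.

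The multiciliated cell markers summed to 353, 327 and 402 CPM in PNx replicates 1, 2 and 3 and to 174, 122 and 134 CPM in the other 3, with 107 to 196 CPM in Control, 88.6 to 179 CPM in NaKtide and 131 to 224 CPM in PNx+NaKtide. Of 17 tested, 7 (41.2%) had an unadjusted p-value under 0.05 (median 1.77, or -0.45 without PNx replicates 1, 2 and 3). This list shares Hydin, Ak7, Lrrc23, Dynlrb2, Foxj1, Mcidas, Ccno, Deup1 and Cdc20b with the axoneme and regulator lists above. Its values are therefore not independent of theirs. Over all 24 libraries, Sntn had 3 counts and Gmnc 11, while Foxj1 had 220, Ccno 349 and Mcidas 487. The epididymis is an organ bordered by a visceral fat pad in male mice, and its 15 markers were summed too. Their sum was 971 to 2728 CPM in Control, 34.9 to 2775 CPM in NaKtide and 1281 to 2747 CPM in PNx+NaKtide. In PNx it was 20.9, 296, 758, 1694, 2629 and 137 CPM in replicates 1 to 6, so that replicates 4 and 5 lay inside the Control range and the others below it. The median log2 fold change was -0.98, or -0.27 without PNx replicates 1, 2 and 3, with 0 of 15 at an unadjusted p-value under 0.05. Adipocyte markers had a median of 1.62 with 7 of 20 (35%) at an unadjusted p-value under 0.05. Without replicate 6 of PNx and NaKtide the median was -1.29, with 3 higher and 9 lower of 19 tested, against 34.4% of all genes, and without PNx replicates 1, 2 and 3 it was 2.14. PNx replicates 1 to 5 held 339 to 555 CPM of adipocyte markers and Control 341 to 1005 CPM, and for none of the 20 were PNx replicates 1, 2 and 3 the 3 highest libraries. The part of other cell types in the members' values was not tested.

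**Figure D5:**
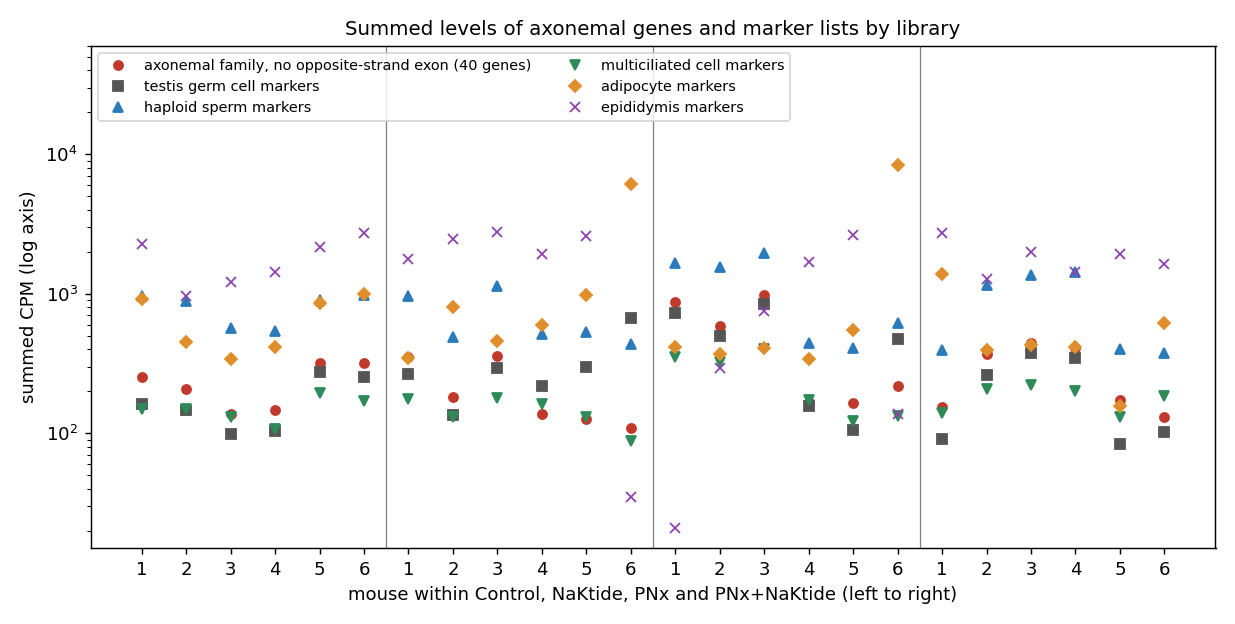
Summed CPM on a log axis for each of the 24 libraries, ordered by group and replicate, for the 40 members without an opposite-strand overlap and for the markers of testis germ cells, haploid sperm, multiciliated cells, adipocytes and epididymis. The member, germ cell, sperm and multiciliated sums are high in PNx replicates 1, 2 and 3, whereas the adipocyte sum peaks at 8463 CPM in PNx replicate 6.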

How the data were processed

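Gene symbols, coordinates and strands came from GENCODE M21 (GRCm38). The authors deposited raw counts per gene, made per the labels and methods with Trimmomatic 0.38, HISAT2 2.1.0 (GRCm38) and GenomicAlignments from stranded mRNA libraries of RNA with high integrity, and FPKM per gene deposited by the authors, used here for levels per length and for alternatives. The authors' normalized values were not used. All columns of per-sample values were matched to a sample (0 unmatched). The member genes, roles and lists were chosen with earlier results of these data known.

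Genes with more than 10 counts over 24 libraries were tested with edgeR 4.0.16 in R 4.3.3 (TMM scaling, robust quasi-likelihood F-test, 1 fit of 4 group means). P-values were adjusted by Benjamini-Hochberg over all genes tested, with a threshold of 0.1. The SE is the absolute log2 fold change over the square root of F. The test was run on counts simulated with the same shift in all PNx libraries. That setting lacks the split within the PNx group, so the check says nothing about it. Alternatives were DESeq2 1.42.0, limma 3.58.1 voom with sample weights, limma on log2(FPKM + 1) and log2(FPKM + 0.1), other scalings and filters, a replicate block and libraries left out. FPKM-scale fold changes understate those of low genes. A gene overlapped another when exons shared at least 1 base. Genes to name were the members of lowest p-value (12 in each of the main comparisons, 4 in the others), the 2 of highest FPKM per role and the 6 of most counts with and without an overlap. Not all of these are described. Other members, such as Rsph6a, Rsph4a, Dnah2, Tekt3 and Cfap161, were named outside this rule. No replicate pair agreed within sampling noise. Depth per library was 679250 to 2979505 counts, and limits on a count of 0 cover counting error only.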

Additional observations from a re-analysis of the deposited data

Results flagged for a closer look

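Among 132 groups of 6 libraries examined for a library apart from the rest, 3 passed Dixon's critical ratio of gap to range of 0.625, and chance alone would flag about 1 group in 20. The library apart was PNx replicate 6 for Spag6, with 9.43 CPM against a group median of 36.7. It was PNx+NaKtide replicate 5 for Dnah14, with 256 CPM against a group median of 132. It was NaKtide replicate 6 for Tekt1, with 1.29 CPM against a group median of 34.7. PNx replicates 1, 2 and 3, which stand apart together, cannot be found by this rule.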

How the results depend on the processing

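In PNx against Control the count of called members, 0 in edgeR with TMM, was 46 with DESeq2's size factors, 21 with library size scaling, 13 of 45 with the filterByExpr filter, 47 with DESeq2, 53 with voom and 22 without replicate 6 of PNx and NaKtide. DESeq2's size factors, DESeq2 and voom called 33.3%, 34.9% and 63.5% of all genes. Library size scaling, the filterByExpr filter and leaving out replicate 6 of PNx and NaKtide called 15.7%, 17.9% and 21.8% of all genes. Leaving out 1 library at a time gave 0 to 35 (35 without PNx replicate 4, with 33.2% of all genes called). In PNx+NaKtide against PNx it was 10 with DESeq2 and 32 with voom (9.63% and 42.4% of all genes), and in the interaction 11 with voom (25.2%). Without PNx replicates 1, 2 and 3 the members' median was -0.28 in PNx against Control, 0.62 in PNx+NaKtide against PNx and 0.62 in the interaction. Signs then reversed in PNx against Control for Cfap99 (-0.0873), Cfap61 (-0.0092), Cfap43 (-0.0132), Dnah10 (-1), Cfap46 (-0.23), Dnah12 (-0.11), Cfap44 (-0.19), Spag5 (-0.23) and Dnah7a (-0.46). They reversed in PNx+NaKtide against PNx for Dnah7a (0.14), Dnah3 (0.13), Spag16 (0.52), Cfap44 (0.50), Cfap69 (1.11), Tekt5 (0.65), Cfap36 (0.034) and Cfap43 (0.55), and in the interaction for Cfap43 (0.12). The cause was not tested. The log2 ratio of mean summed member CPM was 0.52 for PNx against Control, 1.12 with DESeq2's size factors and 1.32 with FPKM, and for PNx+NaKtide against PNx it was -0.43 and -1.09 with FPKM. With DESeq2's size factors, an alternative added after seeing the data, 50 members in place of 31 had PNx replicates 1, 2 and 3 highest. The share of all genes under that scaling was not computed, so the rise cannot be read as particular to the members. Leaving out single libraries moved the members' median within 1.09 to 1.74 in PNx against Control and -1.41 to -0.61 in PNx+NaKtide against PNx. Replicate numbers were not taken to pair the samples, because nothing says that they mark shared animals or days. The correlation of deviations in same-numbered pairs had a median of 0.12 (lowest -0.59), against -0.05 for other numbers. Of 24 libraries, 10 correlated best with their own number, a hint from the data and not the design. With the replicate block, medians were 0.89, -0.67, -0.43, 0.54 and -0.20 in PNx against Control, PNx+NaKtide against PNx, NaKtide against Control, PNx+NaKtide against NaKtide and the interaction, with 0 members called in PNx against Control and 9 at an unadjusted p-value under 0.05 (13.4%, against 20.3% of all genes). Shallow libraries limit genes of few counts such as Dnah5 and Rsph4a.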
